A study of Mus musculus with 9 samples.

Results

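DNA replication and S phase genes were read in granulocyte-monocyte progenitors (GMPs) from mice carrying either of a pair of leukaemias and from mice with normal marrow. The set holds 45 genes, chosen by symbol, among 21872 genes with a symbol on the arrays, and all 45 were measured. For 39 of them the array carried 1 probe, and for Mcm3, Prim2, Pole, Rfc5, Chaf1b and Tk1 it carried more, and there the brightest probe by its 9-array mean was taken. Their levels were high: 44 of 45 lay above 7.53, the median of all gene means on the log2 intensity scale, and 23 lay above percentile 90 of all genes. Ccne2 was the exception, at 5.85 to 6.10 in every array, close to the lowest values on the scale.

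The GMPs had been sorted as Lin- cKit+ Sca1- CD16/32+ CD150- marrow cells of C57BL/6 recipients, 1 month after transplantation. LeuB recipients (AE3 in the titles) and LeuA recipients (AE1) had been given splenic cells, each of 1 moribund Tet2-/-:AE mouse, and WT recipients had been given WT bone marrow. Tet2-/- cells lack an enzyme that oxidizes methylated cytosine, and AE is the AML1-ETO fusion of acute myeloid leukaemia. Each group has 3 arrays, called biological triplicates, hybridized with 1 dye (Cy3) to Agilent SurePrint G3 mouse arrays. The arrays of a leukaemia descend from 1 primary mouse, the labels do not say whether an array holds 1 recipient or a pool, and the p-values therefore measure the spread among these arrays. Donor tissue, spleen or marrow, changes together with genotype. In 1 field, on the graft, the LeuB arrays carry the name LeuA/AE3, but every other label says LeuB, which was followed.

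Replication is prepared before it starts. In G1 the origin recognition complex binds DNA, and Cdc6 and Cdt1 load the ring-shaped MCM helicase onto it. At the start of S phase Cdc45 and the GINS complex join the MCM ring and activate it, primase and the polymerases copy the strands, and the sliding clamp PCNA, set in place by the clamp loader RFC, holds the polymerases on DNA. Transcription of many of these genes is driven by E2F factors, which the RB protein holds in check. Normal GMPs are dividing progenitors, so these genes are part of their usual programme.

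The sorted cells of the leukaemias differed from WT in the markers of their own gate and of other cells. The mean over 8 granule and GMP genes (Mpo, Elane, Prtn3, Ctsg, Cebpe, Ms4a3, Csf1r and Cebpa) was 7.46 to 7.9 across LeuB arrays, 7.8 to 7.89 across LeuA arrays and 14.98 to 15.2 across WT arrays, and all 8 fell in both leukaemias. The mean over 8 measured erythroid genes was 14.98 to 15.02 in LeuB, 14.7 to 14.92 in LeuA and 8.95 to 8.99 in WT, and all 8 rose in both. All 5 monocyte genes fell in both. Of 4 measured genes of the sort itself, Fcgr3 (CD16) fell by 1.43 in LeuB and 1.78 in LeuA. Fcgr2b (CD32) fell by 0.96 in LeuB and 1.64 in LeuA. The gate names these proteins as a joint marker, and the labels do not say that each was required. Slamf1 (CD150), which the gate leaves out, was higher in LeuB (0.83, adjusted p = 0.00029) and not called in LeuA. Its level was low in every array, below the median of gene means (7.53). It read 6.67, 6.93 and 7.09 in LeuB, 6.07 to 6.37 in LeuA and 6.03 to 6.12 in WT. Kit was not called in either leukaemia. Of 5 mast cell and basophil genes, 2 rose and 3 fell in LeuB, and 2 rose and 2 fell in LeuA. The mean over 7 mature neutrophil genes spread within groups, at 6.98 to 9.78 in LeuB, 7.67 to 7.75 in LeuA and 9.21 to 11.19 in WT. The part of these differences in the results on replication genes was not tested. Fewer cells of a type and less RNA per cell cannot be told apart in such samples. LeuB 2 and LeuB 3 lay on a slide of their own, and LeuB 1 shared the other slide with all WT and LeuA arrays. With the slide as a block, or on the first slide alone, LeuB 1 is therefore the only array that sets a LeuB difference, and the p-values of those settings borrow their spread from the other arrays.

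Against WT, more replication genes fell than rose in each leukaemia, and the genes that rose were mostly those of origin recognition together with Cdc6 and Ccne1. The calls come from limma and mean an adjusted p under 0.05 (Benjamini-Hochberg) among all 21872 genes. In LeuB, 9 of the 45 rose, 18 fell and 18 were not called. Over all genes, 42.3% were called in that comparison, 21.8% higher and 20.4% lower. In LeuA, 6 of the 45 rose, 11 fell and 28 were not called, where 36.8% of all genes were called, 17.9% higher and 18.9% lower. The share of replication genes called lower was thus above this background in LeuB and near it in LeuA, and the shares called higher were near or below it. Dim genes are seldom called, and most replication genes are bright. With genes below the median of gene means left out, 44 replication genes remained. In LeuB 9 of them rose and 21 fell, where 34.7% of the genes kept were higher and 31.5% lower. In LeuA 7 rose and 14 fell, where 32.0% were higher and 28.5% lower. The median difference over the 45 genes was -0.21 on the log2 scale in LeuB and -0.12 in LeuA, against -0.01 and 0.01 over all genes. The changes were small: called members at least 2-fold from WT were Orc5 (higher), Gins2 and E2f1 (lower) in LeuB, and Orc5 (higher) in LeuA. Over all genes, 6.93% were called and at least 2-fold higher and 6.84% lower in LeuB, and 6.2% and 6.78% in LeuA. In LeuB the arrays of 10 replication genes all lay above those of WT and the arrays of 22 all lay below, where 52.4% of all genes did not overlap, 27.2% higher and 25.2% lower. In LeuA the same held for 11 above and 20 below, where 49.5% of all genes did not overlap, 24.8% higher and 24.7% lower.

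The direction of the split depended on the scale. With each array shifted to an equal mean of 10 housekeeping genes, the median of all genes moved to 0.24 in LeuB and 0.27 in LeuA, and 14 replication genes were then called higher and 10 lower in LeuB, and 16 higher and 3 lower in LeuA. That scaling moved all genes alike: 48.5% of them were then called higher and 12.6% lower in LeuB, and 52.6% and 12.2% in LeuA. Gusb, one of the 10, fell by 1.67 in both leukaemias, and with it left out the split was 11 higher and 13 lower in LeuB, and 10 higher and 9 lower in LeuA, a setting chosen after its values were seen. Over all genes it gave 27.7% higher and 16.1% lower in LeuB, and 22.7% and 14.9% in LeuA. The directions below are those of the deposited scale, on which the arrays share a distribution.

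**Figure D1:**
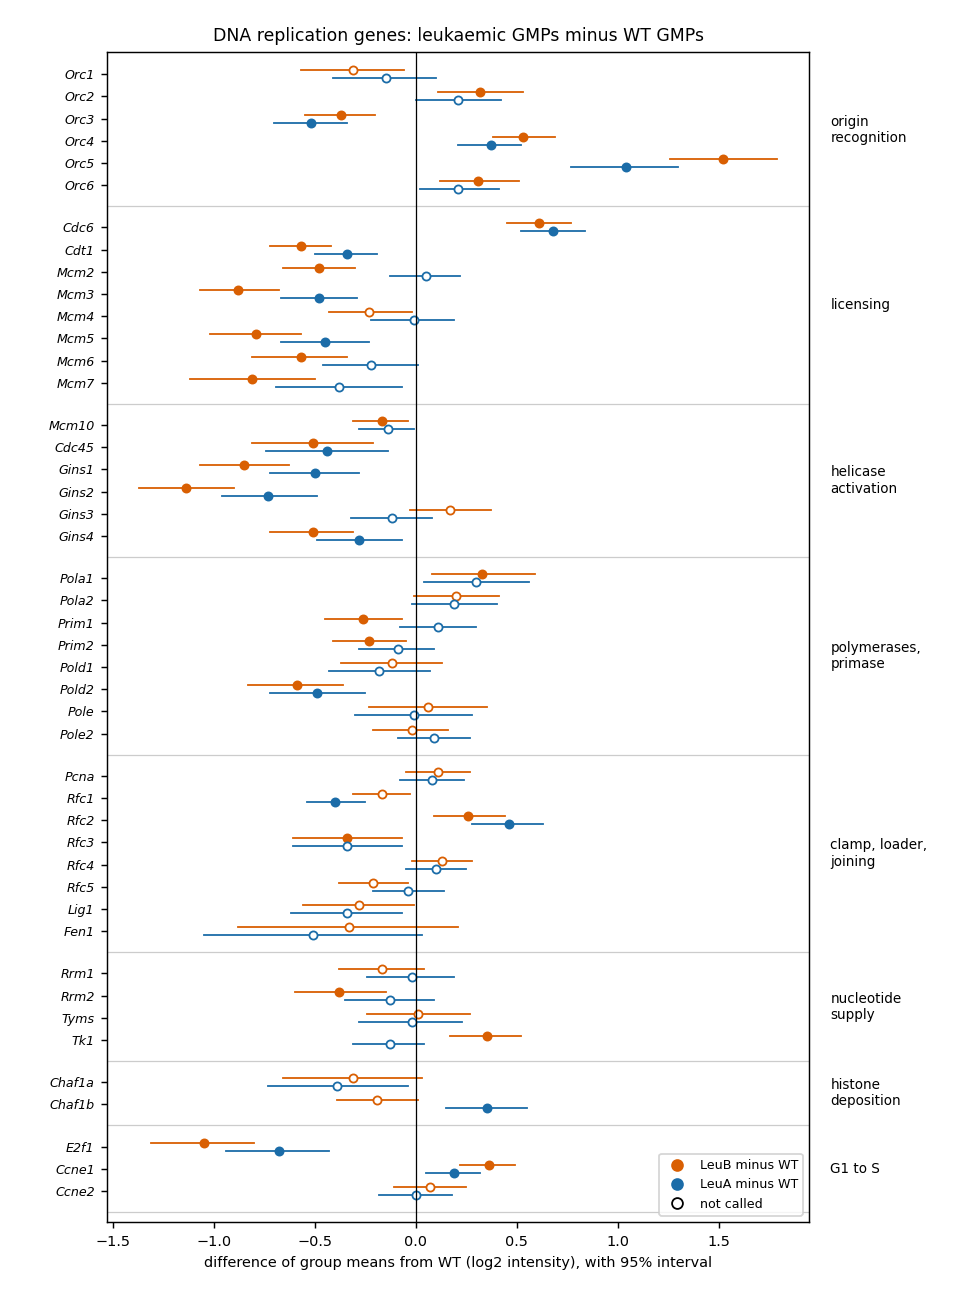
Difference of each replication gene from WT in LeuB and in LeuA on the log2 scale (x axis), with genes in rows by function; points are differences of means over 3 arrays, bars are 95% intervals from limma, and open points were not called. Orc5 stands at 1.52 in LeuB and 1.04 in LeuA, and Gins2 and E2f1 lie farthest to the left, at -1.14 and -1.05 in LeuB.

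Both comparisons use the same WT arrays, so the leukaemias are given side by side. In all, 5 genes rose in both (Orc4, Orc5, Cdc6, Rfc2 and Ccne1), 10 fell in both (Orc3, Cdt1, Mcm3, Mcm5, Cdc45, Gins1, Gins2, Gins4, Pold2 and E2f1), and 0 were called in opposite directions. A further 12 were called in LeuB and not in LeuA, Rfc1 and Chaf1b were called in LeuA and not in LeuB, and 16 were called in neither. Joint calls over all genes were not counted, so these counts are not read as a trait of replication genes. In the single comparisons 42.3% of all genes were called in LeuB and 36.8% in LeuA. The joint counts also say nothing on whether the leukaemias differ, which is tested directly further on.

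The promoters of 6 genes show how the sequence at the start of these genes varies: E2f1 and Mcm3, with the largest called falls among genes with a promoter in the table used, Orc5 and Cdc6, with the largest rises, and Chaf1b and Mcm2, with the largest differences between the leukaemias. The sequences are those of RefSeq on the GRCm38.p6 build, 5′ to 3′ on the strand of the gene, with 170 bases before the start of transcription and 30 after it. They lie at chr2:154569397-154569596 (E2f1, minus strand), chr1:20820283-20820482 (Mcm3, minus), chr5:22550309-22550508 (Orc5, minus), chr11:98907981-98908180 (Cdc6, plus), chr16:93883731-93883930 (Chaf1b, plus) and chr6:88898751-88898950 (Mcm2, minus). Capitals mark E2F-type words and CCAAT boxes on either strand, and a sequence with no capitals holds neither.
E2f1: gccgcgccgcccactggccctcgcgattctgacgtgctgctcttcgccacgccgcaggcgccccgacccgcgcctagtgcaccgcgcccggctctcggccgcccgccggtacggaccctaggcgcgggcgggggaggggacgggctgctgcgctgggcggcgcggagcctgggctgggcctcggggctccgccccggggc
Mcm3: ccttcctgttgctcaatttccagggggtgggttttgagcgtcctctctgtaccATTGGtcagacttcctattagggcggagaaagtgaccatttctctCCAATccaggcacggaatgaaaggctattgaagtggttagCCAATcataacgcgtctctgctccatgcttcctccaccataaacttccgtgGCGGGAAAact
Orc5: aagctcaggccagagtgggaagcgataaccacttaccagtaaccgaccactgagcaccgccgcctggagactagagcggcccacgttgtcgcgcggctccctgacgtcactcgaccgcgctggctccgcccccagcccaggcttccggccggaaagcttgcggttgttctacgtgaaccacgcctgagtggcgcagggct
Cdc6: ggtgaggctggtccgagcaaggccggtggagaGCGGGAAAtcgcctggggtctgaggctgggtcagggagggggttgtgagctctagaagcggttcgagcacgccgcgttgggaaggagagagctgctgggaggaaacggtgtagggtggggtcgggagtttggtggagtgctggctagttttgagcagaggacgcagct
Chaf1b: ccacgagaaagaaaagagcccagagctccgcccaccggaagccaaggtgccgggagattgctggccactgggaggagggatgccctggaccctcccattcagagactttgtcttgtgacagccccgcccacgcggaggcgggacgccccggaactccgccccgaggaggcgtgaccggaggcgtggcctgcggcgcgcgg
Mcm2: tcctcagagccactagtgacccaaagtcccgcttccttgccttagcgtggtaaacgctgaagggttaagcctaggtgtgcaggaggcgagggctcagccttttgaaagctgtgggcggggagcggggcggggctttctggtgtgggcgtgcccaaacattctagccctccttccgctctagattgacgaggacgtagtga

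The E2F-type words searched were TTTCCCGC, TTTGGCGC, TTTCGCGC and TTTGCCGC, on both strands, in the 250 bases before to the 50 bases after the first listed start of each gene. Words could overlap one another, as a pair did at Mcm5 and another at Mcm6. Of the 45 genes, 37 had a promoter in the RefSeq table, and Mcm4, Gins1, Gins2, Gins4, Prim2, Pole, Rfc2 and Ccne2 were not found there. A word was present in 13 of the 37 (35.1%) and in 626 of all 27025 promoters (2.32%). The 13 were Orc1, Orc3, Cdc6, Cdt1, Mcm3, Mcm5, Mcm6, Mcm7, Gins3, Pola1, Pold1, Pole2 and Rfc3. They hold the loaders and 4 of the 6 helicase subunits, of which Mcm4 could not be searched. The CCAAT box was present in 20 of the 37 (54.1%) and in 37.9% of all promoters. Among the 13 genes with an E2F-type word, 2 rose and 7 fell in LeuB, and 1 rose and 4 fell in LeuA. Among the 24 without one, 6 rose and 7 fell in LeuB, and 4 rose and 4 fell in LeuA. Over all genes, 21.8% rose and 20.4% fell in LeuB, and 17.9% rose and 18.9% fell in LeuA. Calls among all genes with a word were not counted, and a link between word and direction was not tested. Mcm3 carried a word at position 20 after the start, seen at the end of its sequence, and Cdc6 carried one at position -138, so that a gene that fell and a gene that rose both had one. Absence of these letters from a window says nothing on the factor.

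**Figure D2:**
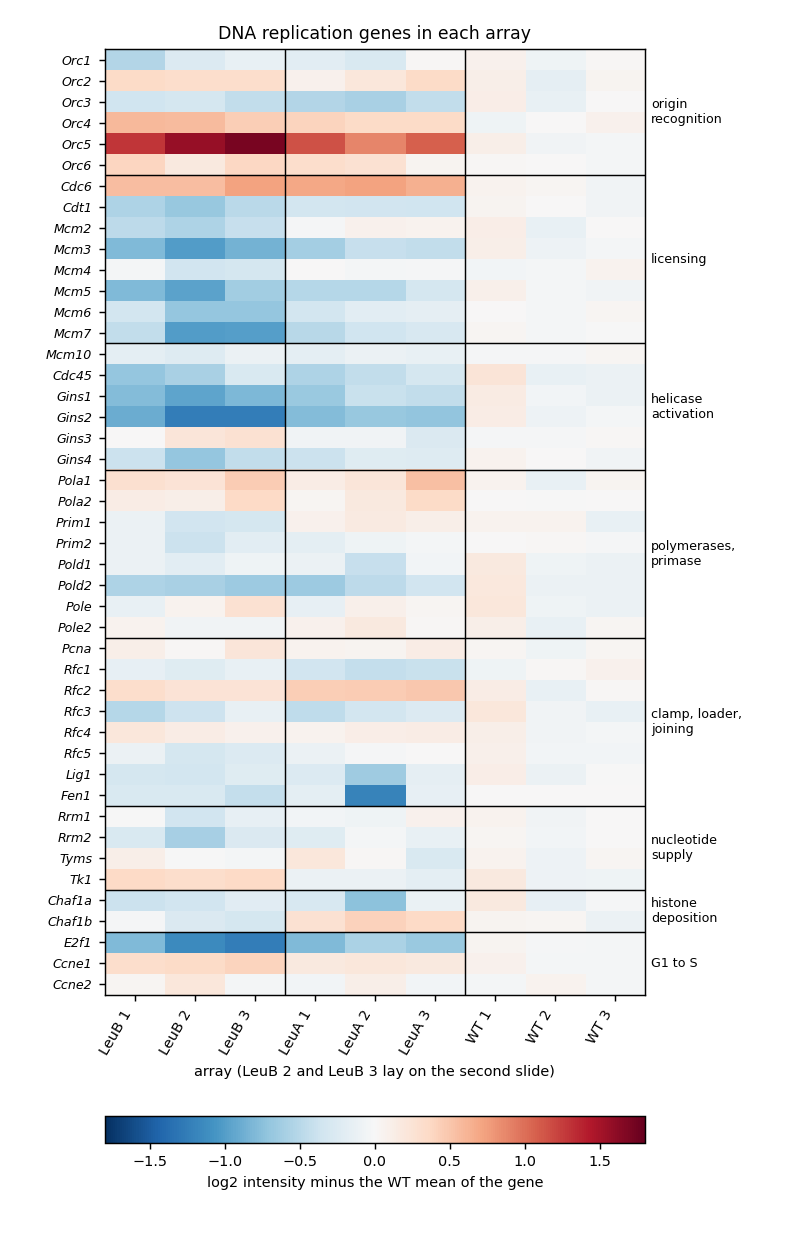
Log2 intensity of each replication gene (rows) in each array (columns) minus the WT mean of the gene, with red above and blue below WT. The rows of Mcm3, Mcm5, Gins1, Gins2 and E2f1 are blue in all 6 leukaemic arrays, those of Orc5 and Cdc6 are red, and Fen1 in LeuA 2 stands apart at 13.09.

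Subunits of the origin recognition complex, which marks the sites where replication can begin, were mostly higher in LeuB, where 4 of 6 rose and 1 fell. In LeuA 2 rose, 1 fell and 3 were not called. The counts of this function and of those below stand against all genes, where 21.8% were called higher and 20.4% lower in LeuB. In LeuA these shares were 17.9% and 18.9%. Orc5, an ATP-binding subunit, read 9.05, 9.34 and 9.48 in LeuB, 8.92, 8.65 and 8.84 in LeuA and 7.87, 7.70 and 7.74 in WT. Every leukaemic array lay above every WT array, and every LeuB array above every LeuA array. Orc5 was 2.87-fold higher in LeuB (1.52 on the log2 scale, SE 0.12, adjusted p = 4.2e-06) and 2.05-fold higher in LeuA (1.04, SE 0.12, adjusted p = 6.9e-05). With the slide as a block in the model the LeuB difference was 1.28.

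Orc4, which also binds ATP, rose by 0.53 in LeuB and 0.37 in LeuA (SE 0.07, adjusted p = 0.00013 and 0.0018). Orc2 and Orc6 rose in LeuB by 0.32 and 0.31 (SE 0.09, adjusted p = 0.019 and 0.016), and in LeuA each gave 0.21 (adjusted p = 0.11 and 0.092). Orc3 moved the other way, with -0.37 in LeuB and -0.52 in LeuA (SE 0.08, adjusted p = 0.0037 and 0.00051). Orc1, the subunit that is degraded after origins have fired, read 7.58, 7.86 and 7.97 in LeuB, 7.92, 7.84 and 8.13 in LeuA and 8.19, 8.03 and 8.13 in WT. LeuA and WT overlapped and LeuB lay below WT, and neither difference was called (-0.31, adjusted p = 0.051, and -0.15, adjusted p = 0.37). With the slide as a block, where LeuB is LeuB 1 alone, Orc1 gave -0.53 (adjusted p = 0.011) and Orc2 gave 0.34 (adjusted p = 0.096), and housekeeping scaling ended the Orc3 call in LeuB (-0.12, adjusted p = 0.16). The LeuB call of Orc2 was also lost without WT 2 or LeuB 2, that of Orc6 without WT 3 or LeuB 3, and Orc6 was called in LeuA without LeuA 3 (0.29, adjusted p = 0.024).

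The loaders Cdc6 and Cdt1 went in opposite directions in both leukaemias. Cdc6 acts with the origin recognition complex to load the MCM ring onto DNA. It read 9.75 to 9.93 in LeuB, 9.84 to 9.92 in LeuA and 9.13 to 9.26 in WT. All leukaemic arrays lay above all WT arrays, by 1.53-fold in LeuB (0.61, SE 0.07, adjusted p = 7.6e-05) and by 1.61-fold in LeuA (0.68, SE 0.07, adjusted p = 3.7e-05). Cdt1, which escorts the MCM ring to the origin, read 13.44 to 13.63 in LeuB, 13.76 to 13.79 in LeuA and 14.05 to 14.17 in WT. Here the leukaemias lay below WT without overlap, with -0.57 in LeuB (SE 0.07, adjusted p = 8.9e-05) and -0.34 in LeuA (SE 0.07, adjusted p = 0.0027). Under housekeeping scaling Cdt1 was no longer called in LeuA (-0.09, adjusted p = 0.34).

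Of the 6 subunits of the replicative helicase, Mcm2 to Mcm7, 5 fell in LeuB and 2 in LeuA. The mean deviation of the 6 from WT was -0.48, -0.76 and -0.65 in the LeuB arrays and -0.33, -0.24 and -0.19 in the LeuA arrays, while the WT arrays lay at 0.05, -0.06 and 0.0. Mcm3 fell by 0.88 in LeuB and 0.48 in LeuA (SE 0.09, adjusted p = 2.3e-05 and 0.0015), and Mcm5 by 0.79 and 0.45 (SE 0.10, adjusted p = 0.00012 and 0.0048). A second Mcm3 probe gave -0.71 in LeuB and -0.56 in LeuA. Mcm7 and Mcm6 fell by 0.81 (SE 0.14, adjusted p = 0.00095) and 0.57 (SE 0.10, adjusted p = 0.0014) in LeuB, and in LeuA they gave -0.38 and -0.22 (adjusted p = 0.056 and 0.13). For Mcm6 and Mcm7, LeuB 1 stood nearer to LeuA than did the other LeuB arrays: Mcm7 read 14.66 in LeuB 1, 14.11 and 14.12 in LeuB 2 and LeuB 3, 14.61 to 14.82 in LeuA and 15.08 to 15.15 in WT. With the slide as a block, and so from LeuB 1 alone, Mcm7 gave -0.45 (adjusted p = 0.0058) and Mcm6 -0.33 (adjusted p = 0.021). They were called in LeuA as well with that block or without LeuB 1 (-0.38, adjusted p = 0.0017, and -0.22, adjusted p = 0.022).

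In LeuA the differences of Mcm2 and Mcm4 lay nearest to 0 among the 6 subunits. Mcm2, which also binds histones ahead of the fork, read 12.64, 12.56 and 12.69 in LeuB, 13.09, 13.19 and 13.18 in LeuA and 13.23, 12.98 and 13.12 in WT. LeuB lay below both other groups, and LeuA overlapped WT. Mcm2 fell by 0.48 in LeuB (SE 0.08, adjusted p = 0.00074), and its LeuA difference of 0.05 was not called (95% interval -0.13 to 0.22). Mcm4, which with Mcm6 and Mcm7 forms the catalytic side of the ring, read 14.21, 13.90 and 13.92 in LeuB, 14.25, 14.20 and 14.22 in LeuA and 14.19, 14.20 and 14.31 in WT. LeuB 1 and LeuA lay among the WT values and the other LeuB arrays below them, and the differences were -0.23 in LeuB (adjusted p = 0.07) and -0.01 in LeuA (adjusted p = 0.93). Mcm4 was called lower in LeuB without LeuB 1 (-0.33, adjusted p = 0.0026), and under housekeeping scaling Mcm3 and Mcm5 were not called in LeuA (-0.22 and -0.20, adjusted p = 0.07 and 0.098).

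Genes that turn the loaded ring into an active helicase mostly fell in both leukaemias. In LeuB 5 of 6 fell and in LeuA 4 of 6, and none rose in either. Gins2, a subunit of the GINS complex, read 10.63, 10.28 and 10.29 in LeuB, 10.75, 10.85 and 10.82 in LeuA and 11.67, 11.44 and 11.50 in WT. The 3 groups did not overlap, and of the LeuB arrays LeuB 1 lay closest to LeuA. Gins2 was 2.20-fold lower in LeuB (-1.14, SE 0.10, adjusted p = 1.5e-05) and 1.66-fold lower in LeuA (-0.73, SE 0.10, adjusted p = 0.00035).

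Gins1 fell by 0.85 in LeuB and 0.50 in LeuA (SE 0.10, adjusted p = 7e-05 and 0.0025), and Gins4 by 0.51 and 0.28 (SE 0.09, adjusted p = 0.0014 and 0.039). The remaining GINS subunit did not follow: Gins3 read 14.24, 14.46 and 14.51 in LeuB, 14.18, 14.18 and 13.98 in LeuA and 14.22, 14.22 and 14.26 in WT. LeuB overlapped WT and LeuA lay slightly below it, and neither difference was called (0.17, adjusted p = 0.16, and -0.12, adjusted p = 0.35). Cdc45, the partner of GINS on the ring, fell by 0.51 in LeuB and 0.44 in LeuA (SE 0.13, adjusted p = 0.012 and 0.028), and Mcm10, which helps the activated helicase to open DNA, fell by 0.17 in LeuB (SE 0.06, adjusted p = 0.043) and gave -0.14 in LeuA (adjusted p = 0.095). Housekeeping scaling ended the calls of Gins4 and Cdc45 in both leukaemias and of Gins1 in LeuA, and turned the Mcm10 difference in LeuB to 0.08 (adjusted p = 0.42). The Mcm10 call in LeuB was also lost with the slide as a block (-0.18, adjusted p = 0.14), and without any single array of WT or LeuA, LeuB 1 or LeuB 2. The LeuA call of Gins4 was lost without any single array of WT or LeuA (adjusted p = 0.055 to 0.13), and that of Cdc45 without WT 1, LeuA 1 or LeuA 2 (adjusted p = 0.064 to 0.095).

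**Figure D3:**
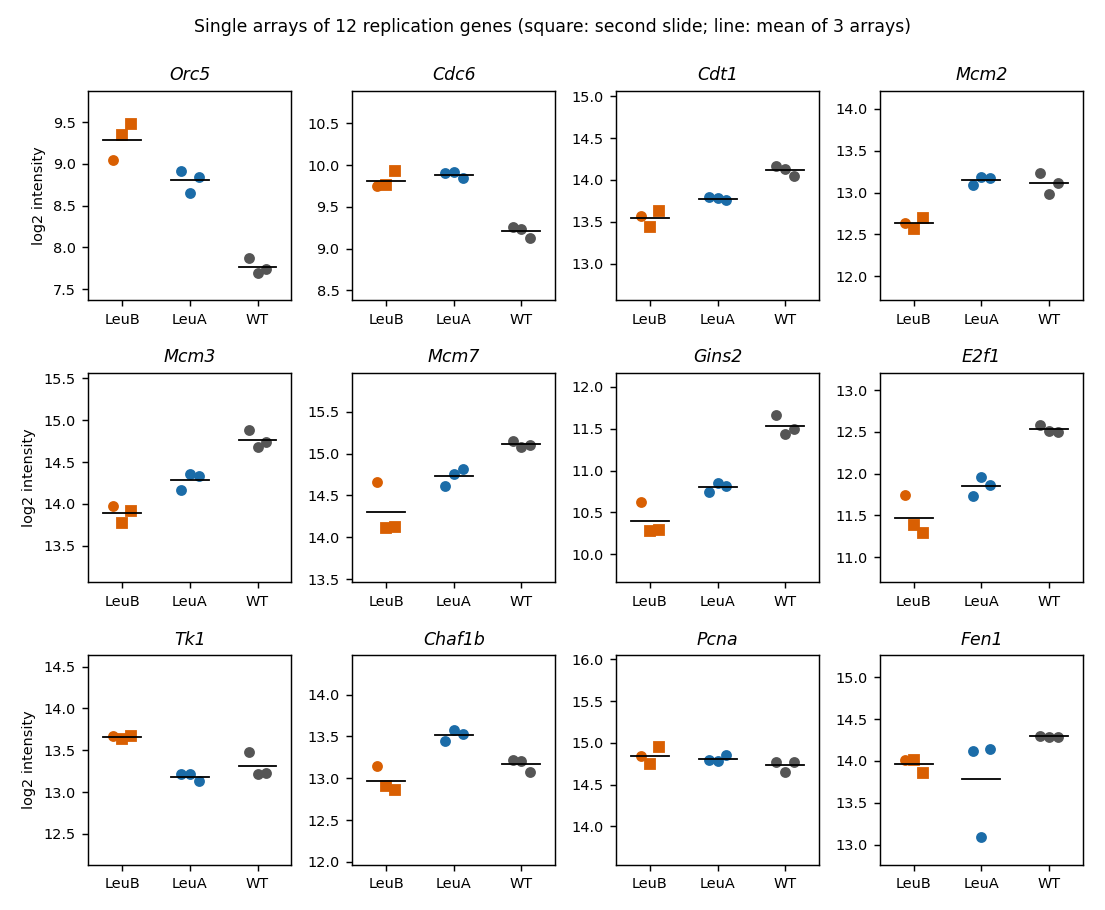
Log2 intensity of 12 replication genes in the single arrays (points) with the mean of 3 arrays (line), for LeuB, LeuA and WT; squares are the LeuB arrays on the second slide, and all panels span the same range. Orc5 and Cdc6 lie above WT in every leukaemic array, Cdt1, Mcm3, Gins2 and E2f1 below it, Mcm2 is low in LeuB alone among the groups, and for Pcna LeuB overlaps WT while LeuA lies just above it.

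Polymerase and primase genes had a median difference from WT of -0.07 in LeuB and 0.04 in LeuA. In LeuB 1 of 8 rose and 3 fell, where 21.8% of all genes rose and 20.4% fell. In LeuA 1 fell, where 18.9% of all genes fell. The call shared by both was Pold2, the small subunit of polymerase delta, which copies the lagging strand: it fell by 0.59 in LeuB and 0.49 in LeuA (SE 0.10, adjusted p = 0.0011 and 0.0042). The catalytic subunit of the same polymerase, Pold1, gave -0.12 and -0.18 (adjusted p = 0.42 and 0.28). Pole, the catalytic subunit of polymerase epsilon on the leading strand, read 7.84, 8.04 and 8.26 in LeuB, 7.83, 8.07 and 8.02 in LeuA and 8.19, 7.90 and 7.87 in WT. All groups overlapped, the differences were 0.06 and -0.01, and the 95% intervals were -0.23 to 0.35 in LeuB and -0.30 to 0.28 in LeuA. Its partner Pole2 gave -0.02 and 0.09 (adjusted p = 0.84 and 0.47).

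Polymerase alpha and primase, which make the first stretch of each new strand, split by subunit in LeuB. Pola1, the catalytic subunit, rose by 0.33 in LeuB (SE 0.11, adjusted p = 0.04) and gave 0.30 in LeuA (adjusted p = 0.069), and Pola2 gave 0.20 and 0.19 (adjusted p = 0.12 and 0.17). The primase genes Prim1 and Prim2 fell by 0.26 and 0.23 in LeuB (SE 0.08, adjusted p = 0.035 and 0.045), and gave 0.11 and -0.09 in LeuA (adjusted p = 0.39 and 0.45). A second, dimmer Prim2 probe gave 0.10 in LeuB (adjusted p = 0.75), and the mean of both Prim2 probes gave -0.07 (adjusted p = 0.67). The LeuB calls of Pola1, Prim1 and Prim2 were lost with the slide as a block (0.30, -0.11 and -0.11, adjusted p = 0.24, 0.46 and 0.48), and under housekeeping scaling Prim2 stood at 0.02 (adjusted p = 0.88). Single arrays also decided them: Pola1 was not called without any single array of WT or LeuB (adjusted p = 0.055 to 0.13), Prim1 without WT 1, WT 2, LeuA 3, LeuB 2 or LeuB 3, and Prim2 without any array except LeuA 1 and LeuB 1. In LeuA, Pola1 was called without LeuA 1 (by 0.38).

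Among the genes of the sliding clamp, its loader and the joining of Okazaki fragments, 1 of 8 rose and 1 fell in each leukaemia. Pcna, the clamp, read 14.84, 14.75 and 14.95 in LeuB, 14.79, 14.78 and 14.86 in LeuA and 14.77, 14.65 and 14.77 in WT. LeuB overlapped WT and LeuA lay just above it, and the 95% interval of the difference was -0.05 to 0.27 in LeuB and -0.08 to 0.24 in LeuA. The loader subunits moved apart from each other. Rfc2 rose by 0.26 in LeuB and 0.46 in LeuA (SE 0.08, adjusted p = 0.021 and 0.00098), and Rfc1, the large subunit, fell by 0.40 in LeuA (SE 0.06, adjusted p = 0.00069) and gave -0.17 in LeuB (adjusted p = 0.054). Rfc3 fell by 0.34 in LeuB (SE 0.12, adjusted p = 0.047) and gave -0.34 in LeuA (adjusted p = 0.054), so that the calls differ where the differences do not. Rfc4 and Rfc5 were not called, at 0.13 and -0.21 in LeuB and 0.10 and -0.04 in LeuA. Under housekeeping scaling Rfc1 was not called in LeuA (-0.14, adjusted p = 0.13) and Rfc3 not in LeuB (-0.09, adjusted p = 0.51), and the LeuB call of Rfc2 was lost with the slide as a block (0.32, adjusted p = 0.053) and without WT 2 or WT 3. The LeuB call of Rfc3 was lost without any array other than WT 3 and LeuB 3 (adjusted p = 0.053 to 0.15), and in LeuA Rfc3 was called without WT 3, LeuB 1 or LeuB 3. Without WT 1, Rfc1 was called lower in LeuB too (-0.21, adjusted p = 0.033).

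Fen1, the nuclease that trims Okazaki fragments, had 1 array far from the others. It read 14.01, 14.01 and 13.86 in LeuB, 14.12, 13.09 and 14.14 in LeuA and 14.30, 14.29 and 14.29 in WT. Every leukaemic array lay below every WT array, and LeuA 2 lay far below the rest. The difference was -0.33 in LeuB and -0.51 in LeuA (SE 0.24, adjusted p = 0.31 and 0.14). Without LeuA 2 the LeuB fall was called at the same size (-0.33, adjusted p = 0.0034), as the spread is estimated over all groups. In LeuA the difference ranged from -0.69 to -0.16 over 23 alternatives of model, scale, probe and arrays, and was never called. Lig1, the ligase that seals the fragments, and Chaf1a, a histone chaperone subunit, were also lowest in LeuA 2, at 13.34 and 11.19. Lig1 gave -0.28 in LeuB and -0.34 in LeuA (adjusted p = 0.094 and 0.055), and was called in LeuB without LeuA 2 (-0.28, adjusted p = 0.018) and in LeuA without LeuA 3 (-0.44, adjusted p = 0.025).

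Nucleotide supply genes gave 1 rise and 1 fall in LeuB and 0 calls among 4 in LeuA. Rrm2, the regulated subunit of ribonucleotide reductase, fell by 0.38 in LeuB (SE 0.10, adjusted p = 0.012) and gave -0.13 in LeuA (adjusted p = 0.37). Its partner Rrm1 gave -0.17 and -0.02 (adjusted p = 0.17 and 0.88). Tk1, the thymidine kinase of S phase, read 13.63 to 13.67 in LeuB, 13.13 to 13.21 in LeuA and 13.22 to 13.48 in WT. It rose by 0.35 in LeuB (SE 0.08, adjusted p = 0.0052) and gave -0.13 in LeuA (adjusted p = 0.25). Tyms, thymidylate synthase, read 8.49, 8.37 and 8.34 in LeuB, 8.58, 8.40 and 8.11 in LeuA and 8.44, 8.29 and 8.42 in WT. All groups overlapped, with differences of 0.01 and -0.02. The Rrm2 call was lost with the slide as a block (-0.27, adjusted p = 0.18), and the Tk1 call with the mean of its 3 probes (0.18, adjusted p = 0.11).

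Histone deposition behind the fork is the work of chromatin assembly factor 1. Chaf1b, its middle subunit, read 13.15, 12.91 and 12.86 in LeuB, 13.44, 13.58 and 13.53 in LeuA and 13.22, 13.21 and 13.07 in WT. LeuA lay above both other groups, and LeuB overlapped WT. Chaf1b was higher in LeuA, by 0.35 (SE 0.09, adjusted p = 0.012), and gave -0.19 in LeuB (adjusted p = 0.11). Chaf1a, the large subunit, gave -0.31 in LeuB and -0.39 in LeuA (adjusted p = 0.13 and 0.083). A second, dim Chaf1b probe, at 6.30 to 6.68, was not called in either, and with the mean of both probes the LeuA call was lost (0.13, adjusted p = 0.31), as it was without WT 3 (0.30, adjusted p = 0.052). Chaf1a was called without LeuA 2 in LeuB (-0.31, adjusted p = 0.036) and without LeuA 3 in LeuA (-0.52, adjusted p = 0.026).

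Of the G1 to S regulators, E2f1 fell and Ccne1 rose in both leukaemias. E2f1, a transcriptional activator of replication genes, read 11.74, 11.39 and 11.29 in LeuB, 11.73, 11.96 and 11.86 in LeuA and 12.58, 12.51 and 12.50 in WT. Every leukaemic array lay below WT, and LeuB 1 lay within the range of LeuA. E2f1 was 2.08-fold lower in LeuB (-1.05, SE 0.11, adjusted p = 4.3e-05) and 1.60-fold lower in LeuA (-0.68, SE 0.11, adjusted p = 9e-04). Ccne1, a cyclin that drives Cdk2 at the start of S phase, rose by 0.36 in LeuB and 0.19 in LeuA (SE 0.06, adjusted p = 0.00096 and 0.036). Ccne2, its close relative, read 5.94, 6.10 and 5.87 in LeuB, 5.85, 6.00 and 5.85 in LeuA and 5.86, 5.96 and 5.87 in WT. At this low level all groups overlapped. The Ccne1 call in LeuA was lost with WT 2, WT 3, LeuB 2 or any single LeuA array left out (adjusted p = 0.051 to 0.13).

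LeuB was then set directly against LeuA, which tests the difference between the leukaemias itself. Of the 45 genes, 3 were higher and 6 lower in LeuB and 36 were not called, where 12.3% of all genes were called, 6.91% higher and 5.36% lower. The median difference was -0.07, against -0.01 over all genes. None of the 45 reached 2-fold, as 0.946% (higher) and 0.777% (lower) of all genes did. The leukaemias did not overlap for 7 genes higher and 11 lower in LeuB, where 30.2% of all genes did not overlap, 16.4% higher and 13.8% lower. Chaf1b (-0.54, SE 0.09, adjusted p = 0.0048) and Mcm2 (-0.53, SE 0.08, adjusted p = 0.0029), whose arrays are given above, did not overlap between the leukaemias. Gins2 (-0.41), Mcm3 (-0.40), Prim1 (-0.36) and Gins1 (-0.35) were also lower in LeuB (SE 0.08 to 0.10, adjusted p = 0.017 to 0.049). Orc5 (0.49, SE 0.12, adjusted p = 0.028), Tk1 (0.48, SE 0.08, adjusted p = 0.0045) and Rfc1 (0.23, SE 0.06, adjusted p = 0.049) were higher in LeuB.

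The slide cannot be told apart from the arrays in this comparison, since LeuB 2 and LeuB 3 alone lay on the second slide. With the slide as a block, which leaves LeuB 1 against the 3 LeuA arrays, Mcm2 gave -0.52 (adjusted p = 0.045) and the other 8 missed the threshold, all of them p-values for an arm of 1 array. Tk1 kept its size (0.49, adjusted p = 0.054), Chaf1b gave -0.37 (adjusted p = 0.082), and Orc5 and Gins2 shrank to 0.25 and -0.18 (adjusted p = 0.41 and 0.48). On the first slide alone 0 of the 45 were called in limma, with 9 at an unadjusted p under 0.05, and Mcm2 stood at -0.52 (adjusted p = 0.074). Over the 45 genes LeuB 1 had a median absolute difference of 0.13 from each other LeuB array, and of 0.10 from LeuA 1, 0.19 from LeuA 2 and 0.18 from LeuA 3. Without LeuA 2, without LeuA 3 or without LeuB 2, the calls of Mcm2, Chaf1b and Tk1 remained and the other 6 did not, and without LeuB 3 the count was 5 (1 higher, 4 lower). Leaving out LeuB 1 gave 3 calls higher and 11 lower, among them Mcm7 (-0.61, adjusted p = 0.0014), Mcm6 (-0.47, adjusted p = 0.0033) and E2f1 (-0.50, adjusted p = 0.004). Calls over all genes rose as well in that setting, to 12.8% higher and 12.3% lower.

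**Figure D4:**
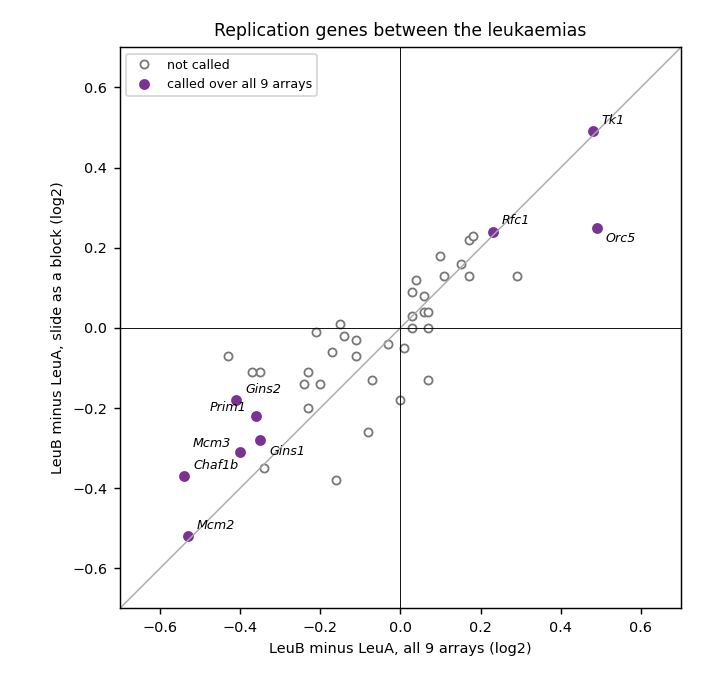
Difference of LeuB from LeuA for each replication gene on the log2 scale, over all 9 arrays (x axis) and with the slide as a block (y axis); filled points were called over all 9 arrays, and the diagonal marks equal values. Mcm2 and Tk1 lie on the diagonal, while Orc5 (0.49 and 0.25) and Gins2 (-0.41 and -0.18) lie nearer to 0 with the block.

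Against WT, the slide also touched the LeuB calls. Not all of the 27 calls were kept with the slide as a block or on the first slide alone. There LeuB 1 alone stands for LeuB and the spread comes from the other arrays, and calls over all genes were fewer too. Without LeuB 1, Mcm4, Rfc5, Rrm1 and Chaf1b were called lower as well and Gins3 higher (0.25, adjusted p = 0.027). Calls over all genes rose in that setting too, to 24.4% higher and 25.1% lower. The median over the 45 genes was -0.11 with the block and on the first slide, against -0.21 over all arrays. Calls that held in all 23 alternatives of model, scale, probe and arrays, at the same call rule, were those of Orc4, Orc5, Cdc6 and Ccne1, which rose, and of Cdt1, Mcm2, Mcm3, Mcm5, Mcm6, Mcm7, Gins1, Gins2, Pold2 and E2f1, which fell. For LeuA against WT, where no array of either group lay on the second slide, all 17 calls were also made with the block, and those of Orc4, Orc5, Cdc6, Rfc2, Orc3, Gins2 and E2f1 held in all 23 of those alternatives. At 2-fold, the calls left were those of Orc5, Gins2 and E2f1 in LeuB and of Orc5 in LeuA.

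Other genes of the same pathway, from lists of their known roles, are given as counts. Each count stands against all genes, where 21.8% were called higher and 20.4% lower in LeuB, and 17.9% and 18.9% in LeuA. Among 11 genes of origin firing and licensing control, 2 rose and 2 fell in LeuB, and 3 rose and 2 fell in LeuA. Donson, a factor in the assembly of the active helicase, rose by 0.86 in LeuB and 0.97 in LeuA, and Dbf4, the regulatory subunit of the kinase that fires origins, by 0.48 and 0.30. Mcmbp, an MCM-binding protein, fell by 0.69 and 0.43, and Topbp1, a scaffold of origin firing and of the checkpoint, by 0.49 and 0.43. Among 21 measured genes of the replisome and fork protection, 4 rose and 6 fell in LeuB, and 3 rose and 4 fell in LeuA. Atad5, which unloads PCNA, rose by 0.37 and 0.60, and Clspn, the checkpoint mediator claspin, by 0.39 and 0.37. Rpa2, of the single-strand binding protein, fell by 0.58 and 0.45, and Pole3, an accessory subunit of polymerase epsilon, by 0.55 and 0.43. These shares lay near those of all genes.

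Among 16 measured nucleotide enzymes, 4 rose and 7 fell in LeuB, and 5 rose and 5 fell in LeuA. Tk2, the thymidine kinase of mitochondria, was 2.78-fold higher in LeuB and 3.07-fold higher in LeuA, and Dck, deoxycytidine kinase, rose by 0.82 and 0.55. Shmt1, which feeds one-carbon units to thymidylate synthesis, was 3.67-fold lower in LeuB and 2.60-fold lower in LeuA, and Umps, of pyrimidine synthesis, was 2.35-fold and 1.54-fold lower. Among 10 histone chaperones and proteins of replicating chromatin, 1 rose and 5 fell in LeuB, and 1 rose and 6 fell in LeuA. Asf1b, a histone chaperone that works with chromatin assembly factor 1, rose by 1.32 and 0.98. In LeuA it read 13.25, 13.27 and 12.29, so that LeuA 3 lay nearer to WT (11.90 to 12.01) than to LeuA 1 and LeuA 2. Cdca7, a partner of the remodeller Hells, fell by 2.12 and 1.45, and Hells itself by 0.75 and 1.13.

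The E2F and RB genes moved in both directions, and E2f2, Rb1 and E2f6 moved farther in LeuB than any of the 45 replication genes. Of 14 genes, 8 rose and 2 fell in LeuB, and 6 rose and 3 fell in LeuA. E2f2, an activator of the same class as E2f1, read 13.05, 12.94 and 13.07 in LeuB, 12.59, 12.35 and 12.49 in LeuA and 10.52, 10.43 and 10.58 in WT. It was thus 5.69-fold higher in LeuB and 3.90-fold higher in LeuA, with no overlap (SE 0.08, adjusted p = 7.8e-09 in LeuB and 4.2e-08 in LeuA), opposite to E2f1. Rb1, which restrains these activators, rose by 1.70 in each leukaemia, and E2f7, a repressor of the family, by 0.76 in LeuB and 0.96 in LeuA. E2f6, another repressor, fell by 1.99 in LeuB and 0.54 in LeuA, and Tfdp2, a dimerization partner of E2F factors, fell by 1.05 in LeuA and gave -0.15 in LeuB (adjusted p = 0.34).

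Of 16 G1 and S cyclins, kinases and ubiquitin ligase parts, 5 rose and 7 fell in LeuB, and 7 rose and 7 fell in LeuA. Ccnd1 read 6.46, 6.29 and 6.52 in LeuB, 6.36, 6.30 and 6.34 in LeuA and 9.80, 9.55 and 9.47 in WT. Ccnd2 read 14.18, 14.27 and 14.31 in LeuB, 13.51, 13.70 and 13.49 in LeuA and 12.25, 12.50 and 12.45 in WT. The D cyclins, which activate Cdk4 and Cdk6 against RB, moved apart. Ccnd1 fell to near the low end of the scale in every leukaemic array, where its level is only bounded, so no fold is given (adjusted p = 6.3e-09 in LeuB and 4.8e-09 in LeuA). Ccnd2 was 3.60-fold higher in LeuB and 2.25-fold higher in LeuA, and Ccnd3 rose by 0.33 and 0.46 (adjusted p = 0.0057 and 0.00075). Cdk4 fell by 1.01 and 0.67, Skp2, which targets CDK inhibitors and Cdt1 for degradation, fell by 1.08 and 0.36, and Ccna2, the S phase cyclin, rose by 0.84 and 0.70. Of 9 replication checkpoint genes, 2 rose and 3 fell in each leukaemia, in a list too short to set apart from the shares of all genes. Atr, the kinase of stalled forks, rose by 0.94 in LeuB and 0.67 in LeuA, whereas its partner Atrip fell by 0.53 in each.

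Mitosis genes did not share the falls of the replication genes. Of 15 measured, 12 rose in LeuB and 11 in LeuA, and 0 fell, where 21.8% of all genes rose in LeuB and 17.9% in LeuA. Mki67, a proliferation marker, rose by 1.20 in LeuB and 1.15 in LeuA (SE 0.07, adjusted p = 4.4e-07 and 6e-07), with arrays at 15.31 to 15.40 in LeuB, 15.25 to 15.37 in LeuA and 14.06 to 14.24 in WT.

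**Figure D5:**
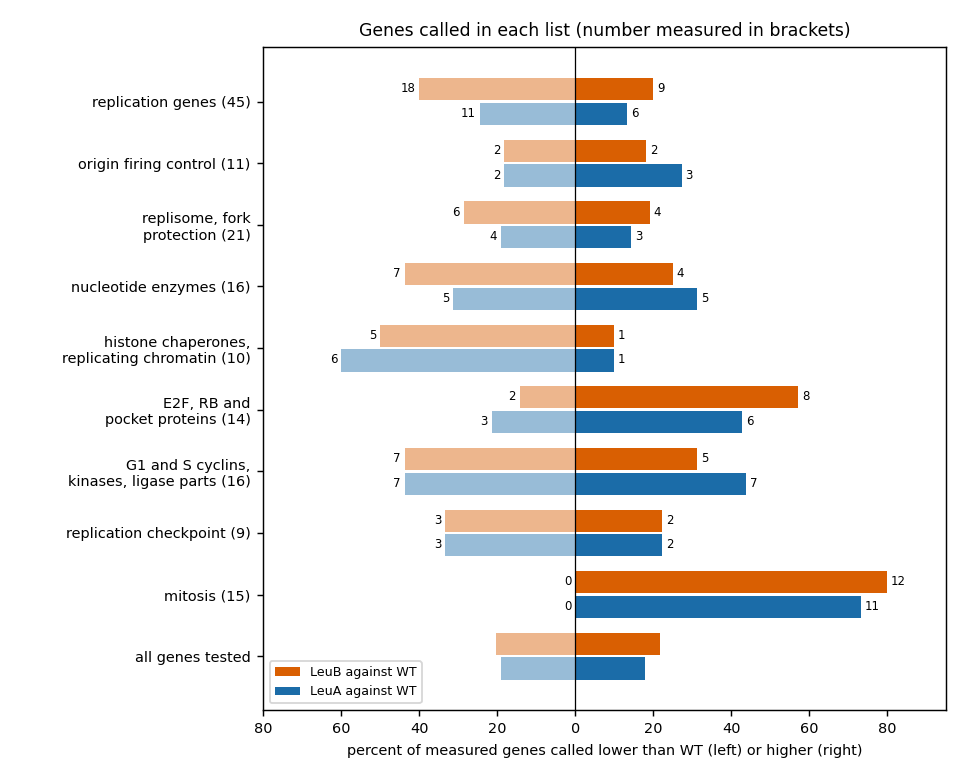
Percent of measured genes of each list called higher than WT (right) or lower (left) in LeuB and in LeuA, with the number of genes beside each bar and the number measured in brackets. The replication genes have 18 falls and 9 rises in LeuB, the mitosis genes 12 rises and 0 falls, and the lowest bars give all 21872 genes.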

How the data were processed

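Expression was measured in 9 one-colour arrays, 3 per group. The values deposited by the authors are log2 intensities of 37877 probes, and RMA, affy and limma are the tools named, without version or role, per the submitters' processing notes. Array medians were 7.02 to 7.04, and quantile normalization on top changed no value by more than 0.06, so they were used as deposited. Background correction and detection flags are not given in the sources used here, and the number of arrays limits the precision. The probe table supplied with the series gave 24877 probes 1 symbol, 0 several and 13000 none, and each of 21872 genes was read from the probe with the highest mean. Dim probes were kept.

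The comparisons were made in limma 3.58.1 under R 4.3.3 with lmFit and eBayes over all 9 arrays, with two-sided tests and Benjamini-Hochberg adjustment over all 21872 genes. The residual SD had a median of 0.112. The code was tested on simulated data. Alternatives covered slide, replicate number, scaling, dim genes, probes, variance prior, arrays left out and call rule. The 45 genes and all other lists were chosen with earlier results of these data known. Values of single arrays are given for members called with a log2 difference of at least 1 from WT or 0.5 between the leukaemias, and for the least changed member of each functional group. Of each pathway list, up to 3 called genes with the largest rise and 3 with the largest fall could be named. Single arrays of Fen1, Mcm7, Slamf1, Asf1b, E2f2, Ccnd1, Ccnd2 and Mki67 were added after their values were seen. So were the ranges of Cdc6, Cdt1 and Tk1, and Ccnd3. Promoters were shown for 6 members, by the same differences.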

Additional observations from a re-analysis of the deposited data

Results flagged for a closer look

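Of the 45 replication genes, 9 differed between the leukaemias in the direct test of LeuB against LeuA, and this difference between groups is what set them apart here. Over all genes 12.3% were called in that comparison, 6.91% higher and 5.36% lower. Chaf1b gave -0.54 and Mcm2 -0.53 on the log2 scale, followed by Gins2 at -0.41, Mcm3 at -0.40, Prim1 at -0.36 and Gins1 at -0.35, all lower in LeuB. Rfc1 gave 0.23, Tk1 0.48 and Orc5 0.49, all higher in LeuB. Chaf1b was called higher than WT in LeuA (0.35), and LeuB overlapped WT (-0.19, not called). Mcm2 and Prim1 fell in LeuB, and in LeuA they gave 0.05 and 0.11, not called. Gins1, Gins2, Mcm3 and Orc5 were called against WT in both leukaemias and in the same direction. LeuB 2 and LeuB 3 lay on a second slide: with the slide as a block the differences were -0.37 for Chaf1b, -0.52 for Mcm2, -0.18 for Gins2, -0.31 for Mcm3, -0.22 for Prim1, -0.28 for Gins1, 0.24 for Rfc1, 0.49 for Tk1 and 0.25 for Orc5, and the adjusted p was under 0.05 for Mcm2 alone. In that setting LeuB 1 is the only LeuB array compared, so its p-values borrow the spread from the other arrays. The part of the slide in these differences was not tested beyond those values.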

How the results depend on the processing

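Directions of called members held in all 23 alternatives of model, scale, probe and arrays, with 2 exceptions, both in LeuB against WT under housekeeping scaling, where Mcm10 stood at 0.08 and Prim2 at 0.02, neither of them called. For LeuA against WT the count of calls was 17 (6 higher, 11 lower). Housekeeping scaling gave 16 higher and 3 lower with a median of 0.13, and without Gusb 10 higher with a median of -0.02. Requiring a 2-fold difference left 1 call, 1 higher and 0 lower. For LeuB against WT the count was 27 (9 higher, 18 lower). The median was -0.11 with the slide as a block and on the first slide alone, where LeuB 1 alone stands for LeuB. Housekeeping scaling gave 14 higher and 10 lower with a median of 0.04, and without Gusb the median was -0.12. Requiring a 2-fold difference left 3 calls, 1 higher and 2 lower, and an adjusted p under 0.01 left 17, with 5 higher. For LeuB against LeuA the count was 9 (3 higher, 6 lower). It was 1 (0 higher, 1 lower) with the slide as a block and 0 (0 higher, 0 lower) on the first slide alone, where 9 members had an unadjusted p under 0.05. It was 14 (10 lower) with dim genes left out, where 12.8% of the genes kept were called higher and 11.3% lower, 5 (1 higher) with the arrays of these groups alone, 4 (1 higher, 3 lower) without WT 1 and LeuB 3, a pair chosen after seeing the data, 3 (1 higher, 2 lower) at an adjusted p under 0.01, and 0 (0 higher, 0 lower) at 2-fold, where 22 had an unadjusted p under 0.05 at any size. Leaving out each array in turn gave 3 to 14 calls, 1 to 3 higher and 2 to 11 lower: 14 without LeuB 1 (11 lower, with 12.8% of all genes higher and 12.3% lower), 5 without LeuB 3 (1 higher), and 3 (1 higher, 2 lower) without LeuA 2, without LeuA 3 or without LeuB 2. For LeuB against WT, leaving out arrays gave 20 to 29 calls, and 6 higher in place of 9 without WT 2 or without WT 3. Over all genes, 24.4% were higher and 25.1% lower without LeuB 1. These shares were 18.9% and 18.5% without WT 2, and 18.7% and 17.9% without WT 3. The causes were not tested.

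Replicate numbers did not pair the arrays: after removal of group means, the correlation across genes of arrays with the same number was -0.041 to 0.103, with 1 of 9 pairs above 0.1. With the replicate block, LeuA against WT gave 6 higher and 12 lower, LeuB against WT 9 higher and 16 lower, and LeuB against LeuA 1 higher and 5 lower.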

Other observations

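Further probes of 6 replication genes could be set beside those used. For Mcm3, which has a pair of bright probes, both were called lower in both leukaemias when all probes were adjusted together (second probe -0.71 in LeuB, adjusted p = 0.00045, and -0.56 in LeuA, adjusted p = 0.0023), but between the leukaemias the second probe gave -0.15 (adjusted p = 0.36) where the first gave -0.40 (adjusted p = 0.024). For Tk1 the second probe gave 0.28 in LeuB against WT (adjusted p = 0.086) and 0.29 between the leukaemias (adjusted p = 0.16), and the third, at 6.38 to 6.92 in all arrays, gave -0.08 and -0.07. Second probes of Prim2, Pole and Rfc5 were dimmer and gave no call in either leukaemia.

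Over the 45 genes, the most alike arrays were WT 2 and WT 3, with a median absolute difference of 0.06. Within groups these differences were 0.06 to 0.13, and between WT and leukaemic arrays 0.20 to 0.40. LeuB 1, the LeuB array on the slide of the other groups, differed from LeuA 1 by 0.10, from LeuA 2 by 0.19 and from LeuA 3 by 0.18.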
